A study of Mus musculus with 6 samples.

Results

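Copper and zinc are needed by many enzymes and are toxic as free ions, so cells hold them through a small set of importers, chaperones, pumps and storage proteins. The 10 genes described here are Slc31a1, Slc31a2, Atox1, Ccs, Atp7a, Mt1, Mt2, Slc30a1, Slc39a1 and Slc39a10. They were chosen by gene symbol for these roles, with earlier results of these data known, out of 26699 genes in the deposited tables. All 10 were among the 16843 genes tested. Copper enters the cytosol mainly through CTR1 and is passed by chaperones to its targets: ATOX1 hands it to the pump ATP7A, and CCS hands it to superoxide dismutase 1. Metallothioneins bind surplus copper and zinc, ZnT proteins move zinc out of the cytosol and ZIP proteins move it in. The transcription factor MTF1 senses zinc and binds metal response elements in the promoters of its target genes.

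The cells were primary mouse bone marrow macrophages treated with RANKL, the cytokine that starts osteoclast formation. The conditional knockout cells (cKO) had the genotype LysmCre-Slc11a2flox/flox, in which Cre recombinase driven from the lysozyme M locus acts in myeloid cells. The control cells had the genotype Slc11a2flox/flox without Cre, and what Cre itself does cannot be told apart from Slc11a2 loss. Slc11a2 encodes DMT1, a transporter of ferrous iron and other divalent metals. Marrow of both genotypes came from mice aged 8 weeks, and cells of both were first grown in 10 ng/mL M-CSF and then, after passage, in 30 ng/mL M-CSF and 50 ng/mL RANKL; RANKL treatment lasted 48 hours. There were 3 libraries of polyadenylated RNA per genotype. The labels do not say whether each library had its own mouse, and the p-values below therefore speak only for the variation among the 6 libraries, part or all of which may be technical.

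Total counts per library ranged from 49720701 to 57797282. Slc11a2 itself stood at 78.3, 82.8 and 87.4 CPM (read counts divided by the TMM-scaled library total) in cKO replicates 1 to 3, against 119, 110 and 118 CPM in control replicates 1 to 3 (log2 fold change -0.48 ± 0.06 SE, edgeR adjusted p = 0.00219), lower in every cKO library as the labels have it. Of all genes tested, 2.42% differed between genotypes at an adjusted p below 0.05 (edgeR quasi-likelihood test, Benjamini-Hochberg over all genes tested), 1.36% higher and 1.06% lower in cKO cells. These were 407 genes, 229 higher and 178 lower, while a separate fit with a smooth trend over gene length removed from each library (the length trend below) called 360, 251 higher and 109 lower. Osteoclast markers, led by Mmp9, were abundant in both genotypes: 10 of them summed to 8535 to 12212 CPM in cKO and 11787 to 15309 CPM in control libraries. All 10 had negative fold changes, 0 passed with edgeR, 3 had an unadjusted p under 0.05, and DESeq2 called 0 and limma-voom 1. Over all genes, 17.2% had an unadjusted p under 0.05, and limma-voom called 3.45%. DESeq2 called 6.04%, which here and below is a share of the 13237 genes to which it gave an adjusted p. Macrophage markers summed to 14136 to 14536 CPM in cKO and 22556 to 25930 CPM in control libraries, and 1 of 8 fell, Lyz2, whose locus carries Cre. Lyz2 alone stood at 7708 to 7892 CPM in cKO and 16032 to 18915 CPM in control libraries, and the other 7 markers summed to 6276 to 6787 CPM in cKO and 6488 to 7015 CPM in control libraries, which overlap. Of 10 neutrophil markers 7 were tested and 4 rose (Ngp, Ltf, S100a8 and S100a9). Summed because they rose, these 4 stood at 46.1 to 59.1 CPM in cKO and 19.1 to 23.4 CPM in control libraries. Among the tested markers without a call, Mpo had a log2 fold change of -0.82 ± 0.50 (edgeR adjusted p = 0.438). Camp was at 1.56 ± 0.89 (edgeR adjusted p = 0.403), and both had few reads. The whole list summed to 262 to 296 CPM in cKO and 196 to 230 CPM in control libraries, most of it Mmp8, which did not pass (adjusted p = 0.19). Ly6g was not analysed here, and Elane and Retnlg were too low to be tested. Stromal markers, led by Col1a1, summed to 3220 to 5163 CPM in cKO and 3418 to 3989 CPM in control libraries, with positive fold changes in 6 of 6 tested, of which edgeR called 0, DESeq2 1 and limma-voom 1, and 3 had an unadjusted p under 0.05. The part of these cell types in the results below was not tested, and in bulk RNA fewer cells of a type and less RNA per cell cannot be told apart.

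Among the copper and zinc handling genes the copper chaperone gene Atox1 was the single call, lower in cKO cells. Of the 10 genes, 0 rose and 1 fell, beside the 2.42% of all genes called, and 5 had an unadjusted p under 0.05, beside 17.2% of all genes. The libraries of the 2 genotypes did not overlap for Atox1, Mt1 and Slc39a1, which were lower in every cKO library, and for Atp7a, which was higher in every cKO library. That is 4 of 10 genes, beside 22.5% of all genes tested (11.4% lower and 11.1% higher). The median log2 fold change of the 10 genes was -0.11 (7 negative, 3 positive), beside a median of 0.0015 over all genes tested, and -0.060 beside 0.034 with the length trend removed. Other fits called other numbers of them. DESeq2 called 4 (Atox1, Atp7a, Mt1 and Slc39a1), beside 6.04% of the 13237 genes to which it gave an adjusted p. Limma-voom called 1, beside 3.45% of the 16843 genes, and edgeR with no filter on low counts called 2, beside 1.64% of 26699. With the length trend removed the 1 call was Atp7a, beside 2.14% of all genes.

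**Figure D1:**
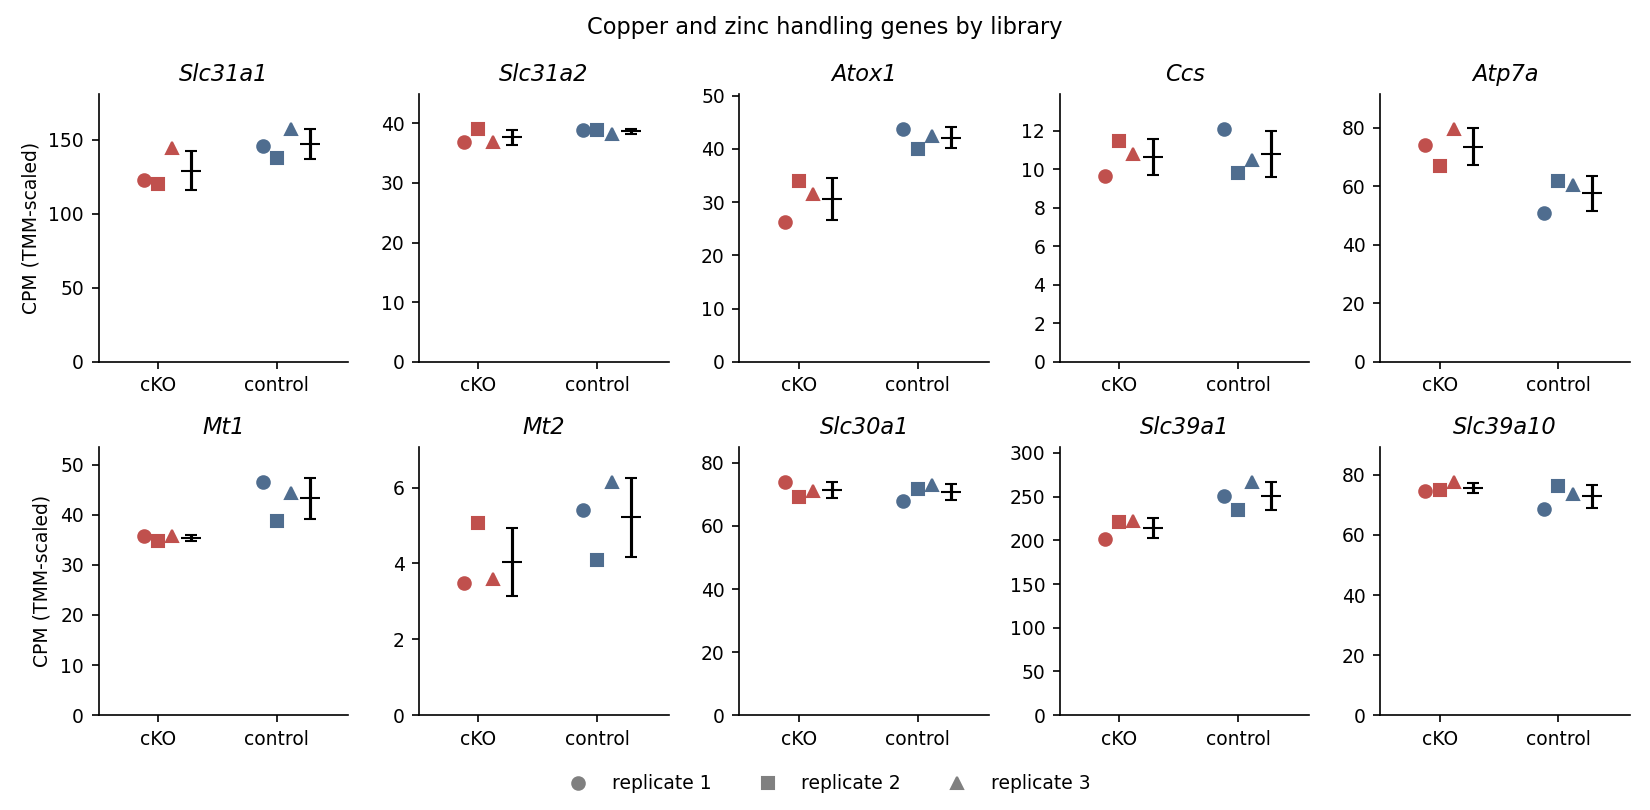
TMM-scaled CPM (y axis, from 0) of each of the 10 genes in the 3 cKO and 3 control libraries; marker shapes are replicate numbers, and the black bar beside each group is the mean with 1 SD. Atox1 lies between 26.2 and 34.0 CPM in cKO libraries and between 40.0 and 43.8 CPM in control libraries, Atp7a separates the other way, and Slc30a1 and Slc39a10 overlap.

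The levels of the 10 genes per unit of length spanned more than an order of magnitude and kept nearly the same order in both genotypes. By the deposited FPKM values (fragments per kilobase of transcript and per number of mapped fragments, mean ± SD, n = 3 libraries), the order in cKO cells was Slc39a1 at 79.0 ± 5.02, Atox1 at 49.3 ± 6.98, Slc31a1 at 26.2 ± 2.64, Mt1 at 24.7 ± 0.161 and Slc31a2 at 16.1 ± 0.741. Below them stood Slc30a1 at 11.85 ± 0.259, Slc39a10 at 10.8 ± 0.281, Atp7a at 7.33 ± 0.587, Mt2 at 5.96 ± 1.38 and Ccs at 5.17 ± 0.512 FPKM. In control cells the order was Slc39a1 at 91.6 ± 6.29, Atox1 at 67.2 ± 3.05, Mt1 at 30.0 ± 2.79, Slc31a1 at 29.7 ± 2.15 and Slc31a2 at 16.4 ± 0.102 FPKM. Slc30a1 at 11.7 ± 0.470, Slc39a10 at 10.3 ± 0.559, Mt2 at 7.65 ± 1.54, Atp7a at 5.71 ± 0.606 and Ccs at 5.21 ± 0.566 FPKM followed. Slc31a1 and Mt1 could not be ranked against each other in either genotype, because their libraries overlapped. Among the lowest genes Atp7a overlapped Mt2, and Mt2 overlapped Ccs, in cKO libraries; in control libraries Mt2 overlapped Atp7a and Atp7a overlapped Ccs. All other neighbours in the order were separate. In both genotypes every Atox1 value in FPKM was several times every Atp7a value.

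**Figure D2:**
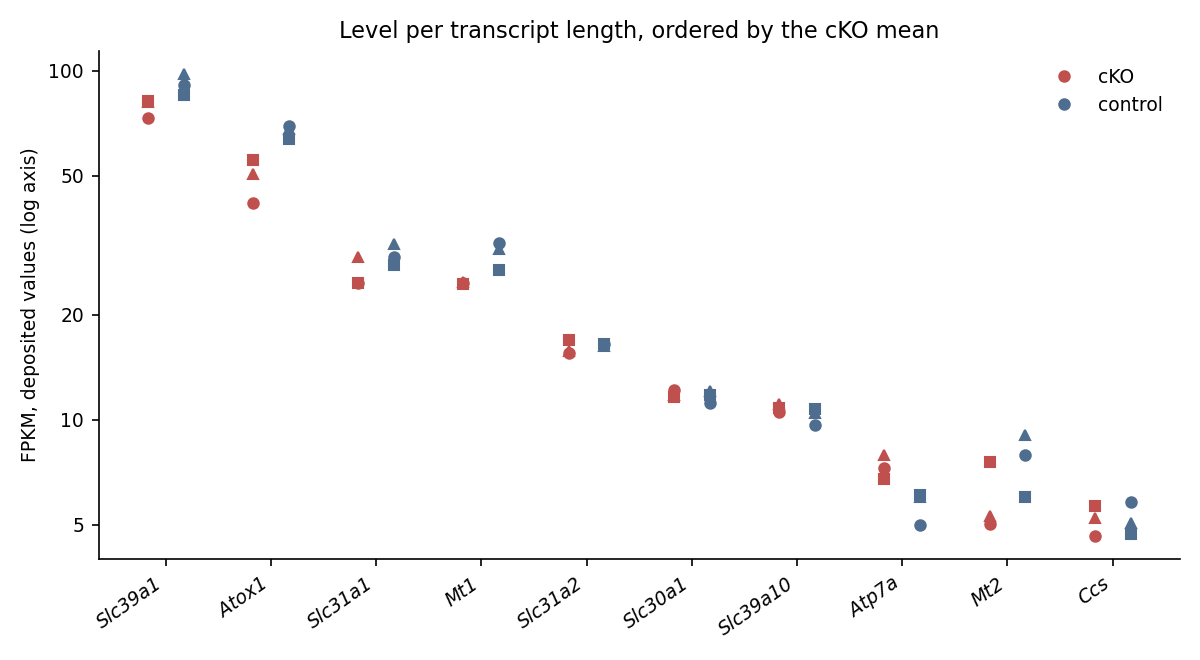
Deposited FPKM (y axis, logarithmic) of the 10 genes in each library, with cKO points left of control points and genes ordered by the cKO mean; circles, squares and triangles are replicates 1, 2 and 3. Slc39a1 and Atox1 are the highest in both genotypes and Ccs has the lowest mean.

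Copper import was represented by Slc31a1, which encodes the high-affinity importer CTR1, and Slc31a2, which encodes its homologue CTR2. Slc31a1 (ENSMUSG00000066150, mm10 chromosome 4, 62360727 to 62391769) stood at 123, 120 and 144 CPM in cKO replicates 1 to 3, against 146, 138 and 158 CPM in control replicates 1 to 3. The groups overlapped through cKO replicate 3, and the log2 fold change of -0.19 ± 0.08 (SE) did not pass (adjusted p = 0.242). The gene Cdc26, on the opposite strand, overlaps it and held 15.4% as many reads, so without a stated strand setting some assignment is uncertain. Slc31a2 (ENSMUSG00000066152, chromosome 4, 62262562 to 62298411) ends 62316 bases before Slc31a1 starts, on the same strand. It stood at 36.9, 39.1 and 36.9 CPM in cKO replicates 1 to 3, against 38.9, 38.9 and 38.2 CPM in control replicates 1 to 3. The groups overlapped. The fold change on the log2 scale was -0.039 (95% interval -0.18 to 0.11, adjusted p = 0.818), and 0.054 with the length trend removed.

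The copper chaperones were Atox1 and Ccs. Atox1 (ENSMUSG00000018585, chromosome 11, 55446641 to 55461239), which delivers copper to ATP7A, fell to 26.2, 34.0 and 31.6 CPM in cKO replicates 1 to 3, against 43.8, 40.0 and 42.5 CPM in control replicates 1 to 3. Every cKO library was below every control library, and cKO replicate 1 was the lowest. The log2 fold change was -0.46 ± 0.09 (SE, adjusted p = 0.0285), a fall of 27.2%, with raw counts of 1322 to 1902 in cKO and 2280 to 2435 in control libraries. The call depended on single libraries: the edgeR adjusted p was 0.137 without cKO replicate 1 and 0.127 without control replicate 1. It was 0.0607 without control replicate 2 and 0.12 without control replicate 3. Those fits, in that order, called 0.341%, 0.522%, 0.954% and 0.667% of all genes, beside 2.42% with all 6 libraries. The log2 fold change of Atox1 ran from -0.36 to -0.54 over all 6 fits that leave out a library. Atox1 is also a very short gene, with 541 bases of annotated exon against a median of 3815 bases over genes tested. With the trend over length removed its log2 fold change was -0.32 and its adjusted p 0.082. DESeq2 gave an adjusted p of 0.00103 and limma-voom 0.021, and over all alternatives the adjusted p ran from 0.00103 to 0.137.

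Ccs (ENSMUSG00000034108, chromosome 19, 4825366 to 4839332), the chaperone for superoxide dismutase 1, stood at 9.63, 11.5 and 10.8 CPM in cKO replicates 1 to 3, against 12.1, 9.80 and 10.5 CPM in control replicates 1 to 3. The groups overlapped, and the 95% interval of the log2 fold change ran from -0.30 to 0.25 around -0.021 (adjusted p = 0.955). The sign changed with the length trend removed (0.082). Sod1, which receives copper from CCS, averaged 84.8 ± 4.58 CPM in cKO and 93.7 ± 3.02 CPM in control cells (SD, n = 3 each), a log2 fold change of -0.14 ± 0.06 that did not pass (edgeR adjusted p = 0.25).

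Atp7a (ENSMUSG00000033792, chromosome X, 106027276 to 106124926) encodes the copper-transporting P-type ATPase that loads copper into the secretory pathway and exports it. It stood at 74.0, 67.1 and 79.8 CPM in cKO replicates 1 to 3, against 50.8, 61.9 and 60.3 CPM in control replicates 1 to 3. All 3 cKO libraries were above all 3 control libraries, with a log2 fold change of 0.35 ± 0.09 (SE) and an adjusted p of 0.057, just outside the threshold. The gene is long, with 8734 bases of exon, and removing the length trend left the value at 0.34 and brought the adjusted p to 0.0402. It also passed with DESeq2 (0.00814), with no filter on low counts (0.0366) and without cKO replicate 2 (0.0467, beside 1.36% of all genes called in that fit). The other fits that leave out a library had edgeR adjusted p-values of 0.0851 to 0.237 and called 0.341% to 3.59% of all genes. Because Atp7a is X-linked, 3 sex-linked genes were looked at after its values were seen. The Y-linked Ddx3y was at 70.1 to 76.7 CPM in cKO and 58.1 to 63.1 CPM in control libraries, and Eif2s3y at 49.2 to 50.8 CPM in cKO and 36.9 to 41.6 CPM in control libraries, both called (adjusted p = 0.0378 and 0.0205). Xist stood at 3.96 to 7.02 CPM in cKO and 5.75 to 8.89 CPM in control libraries, with no call (adjusted p = 0.227). The median log2 fold change of 551 X-linked genes tested was 0.023, and the part of the animals' sex in the Atp7a value was not tested.

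The chaperone and the pump act in sequence, and their mRNA levels were also set against each other. The ratio of Atox1 to Atp7a CPM was 0.355, 0.507 and 0.396 in cKO replicates 1 to 3, against 0.862, 0.647 and 0.704 in control replicates 1 to 3. All cKO ratios lay below all control ratios, which follows from the separation of both genes and adds nothing to it. The ratio sets 541 bases of exon against 8734, and it was not formed with the length trend removed. The ratio was formed after both genes' values were seen and is given without a test.

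**Figure D3:**
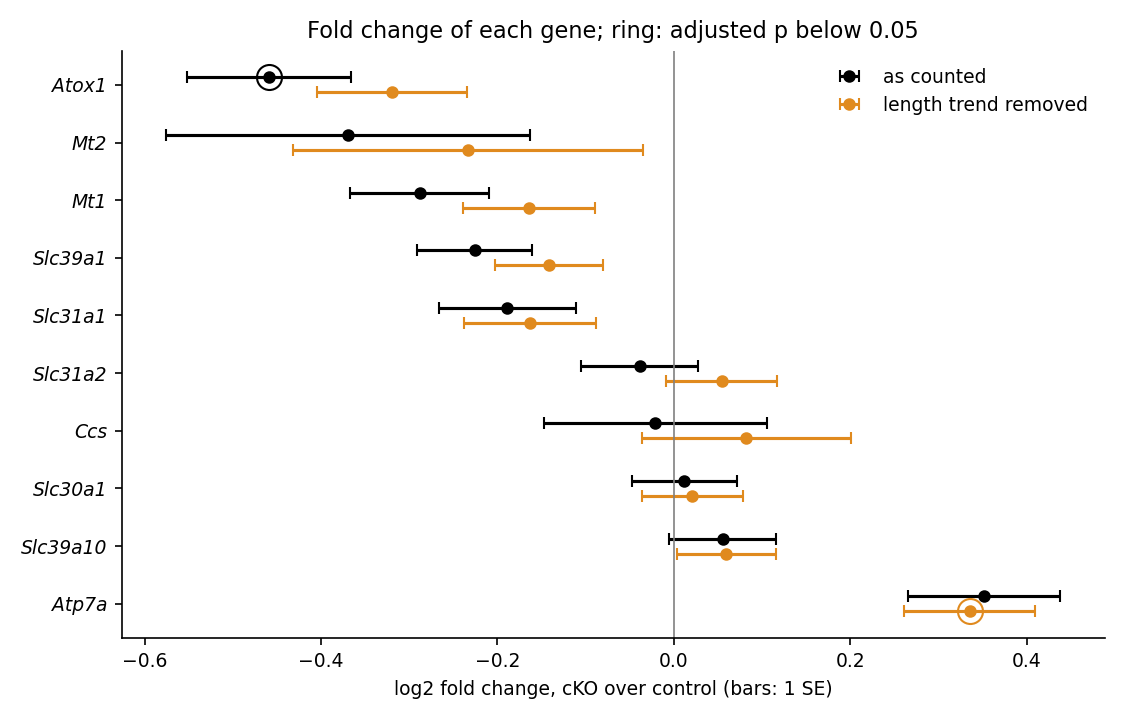
Log2 fold change of cKO over control (x axis) for each of the 10 genes, with bars of 1 SE, from the counts as deposited (black) and with the length trend removed (orange); a ring marks an adjusted p below 0.05. Atox1 is ringed only as counted (-0.46) and Atp7a only with the trend removed (0.34).

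The metallothionein genes Mt1 and Mt2, which encode cysteine-rich proteins that bind zinc and copper, lie next to each other on chromosome 8, with 5514 bases from the end of Mt2 to the start of Mt1. Mt1 (ENSMUSG00000031765, 94179082 to 94180327) stood at 35.8, 34.8 and 35.7 CPM in cKO replicates 1 to 3, against 46.6, 38.8 and 44.4 CPM in control replicates 1 to 3. The cKO libraries were tightly grouped below all control libraries. The log2 fold change was -0.29 ± 0.08 (SE) and did not pass (adjusted p = 0.081), though DESeq2 called it at 0.0357. Mt2 (ENSMUSG00000031762, 94172664 to 94173568) was far less abundant, at 3.47, 5.06 and 3.58 CPM in cKO replicates 1 to 3, against 5.42, 4.10 and 6.15 CPM in control replicates 1 to 3. Replicate 2 stood apart in both genotypes, so that the groups overlapped, and with only 175 to 353 reads per library the 95% interval of the log2 fold change ran from -0.82 to 0.079 around -0.37 (adjusted p = 0.389).

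The coding sequences of Mt1 and Mt2 are 79.2% identical over 183 bases, and the longest run shared by their whole transcripts is 20 bases. With the counts of both genes summed into 1 row, the log2 fold change was -0.29 (adjusted p = 0.0767), a value set almost wholly by the more abundant Mt1. How reads were divided between the copies was not tested. An antisense gene, Gm45774, overlaps Mt2 and held 12.4% as many reads. Both metallothionein genes are short, with 1246 and 588 bases of exon for Mt1 and Mt2. Exon lengths here join all listed transcripts of a gene, and for Mt1 they cover its whole span. Lengths implied by FPKM followed this measure (Spearman correlation 0.998 over genes tested), so the place of Mt1 in the FPKM order depends on it. With the length trend removed their log2 fold changes were -0.16 and -0.23, at adjusted p-values of 0.298 and 0.605. The tenth of well-expressed genes that holds Mt1, the shortest, had a median log2 fold change of -0.12.

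The zinc exporter gene Slc30a1, which encodes ZnT1 at the plasma membrane, is, like Mt1, a classical MTF1 target. Slc30a1 (ENSMUSG00000037434, chromosome 1, 191906767 to 191913247) stood at 74.0, 69.2 and 71.0 CPM in cKO replicates 1 to 3, against 67.9, 71.7 and 72.9 CPM in control replicates 1 to 3. The libraries of the genotypes were interleaved, and the 95% interval of the log2 fold change ran from -0.12 to 0.14 around 0.012 (adjusted p = 0.945). Whether Slc30a1 and Mt1 differ in their response was not tested. Mtf1 itself averaged 27.5 ± 0.999 CPM in cKO and 30.1 ± 0.569 CPM in control cells (SD, n = 3 each; log2 fold change -0.13, edgeR adjusted p = 0.398). Of the 8 genes in a list of MTF1 and its classical targets, 0 rose and 0 fell with edgeR, 2 had an unadjusted p under 0.05, DESeq2 called 1, Mt1, and limma-voom called 0. The list includes Mtf1 itself and, of the genes described here, Mt1, Mt2, Slc30a1 and Slc39a10. An unadjusted p under 0.05 was found for 17.2% of all genes, and DESeq2 called 6.04%. The median log2 fold change of the list was -0.14, and -0.12 with the length trend removed, beside 0.0015 and 0.034 over all genes tested. Its other genes with the smallest p included the selenoprotein gene Selenow (-0.23 ± 0.11) and the iron exporter gene Slc40a1 (-0.14 ± 0.08).

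The promoters of Mt1, Mt2, Slc30a1, Atox1 and Atp7a are shown for the short words they hold. The sequences are RefSeq's on GRCm38.p6, from 250 bases before the annotated start to 30 bases from it, 5′ to 3′ on the gene's strand. Capitals mark each match to TGCACNC or TGCGCNC, the core of the metal response element, or to TGACNNNGC, the core of the antioxidant response element, on either strand.
Mt1, chr8:94178839-94179118, plus strand: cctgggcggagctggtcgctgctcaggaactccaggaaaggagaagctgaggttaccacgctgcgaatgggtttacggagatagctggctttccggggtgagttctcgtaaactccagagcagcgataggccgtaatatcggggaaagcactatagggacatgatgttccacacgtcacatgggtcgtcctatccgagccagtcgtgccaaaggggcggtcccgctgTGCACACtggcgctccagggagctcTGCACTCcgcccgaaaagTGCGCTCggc
Mt2, chr8:94172368-94172647, plus strand: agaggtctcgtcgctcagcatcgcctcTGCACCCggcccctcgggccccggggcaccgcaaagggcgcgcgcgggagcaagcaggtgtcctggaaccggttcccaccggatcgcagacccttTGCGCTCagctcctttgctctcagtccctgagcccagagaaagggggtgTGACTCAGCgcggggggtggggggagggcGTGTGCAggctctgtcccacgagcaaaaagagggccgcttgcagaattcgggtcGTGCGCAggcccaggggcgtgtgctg
Slc30a1, chr1:191906531-191906810, plus strand: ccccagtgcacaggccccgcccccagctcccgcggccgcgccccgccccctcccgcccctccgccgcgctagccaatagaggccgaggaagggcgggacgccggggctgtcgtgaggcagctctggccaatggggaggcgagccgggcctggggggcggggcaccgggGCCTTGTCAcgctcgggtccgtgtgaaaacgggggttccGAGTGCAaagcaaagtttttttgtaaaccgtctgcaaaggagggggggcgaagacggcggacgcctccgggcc
Atox1, chr11:55461179-55461458, minus strand: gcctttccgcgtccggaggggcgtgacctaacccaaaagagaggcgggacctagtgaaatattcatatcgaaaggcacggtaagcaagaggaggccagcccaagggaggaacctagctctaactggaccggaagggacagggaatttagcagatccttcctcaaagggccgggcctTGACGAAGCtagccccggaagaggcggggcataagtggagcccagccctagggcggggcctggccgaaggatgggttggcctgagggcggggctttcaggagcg
Atp7a, chrX:106026974-106027253, plus strand: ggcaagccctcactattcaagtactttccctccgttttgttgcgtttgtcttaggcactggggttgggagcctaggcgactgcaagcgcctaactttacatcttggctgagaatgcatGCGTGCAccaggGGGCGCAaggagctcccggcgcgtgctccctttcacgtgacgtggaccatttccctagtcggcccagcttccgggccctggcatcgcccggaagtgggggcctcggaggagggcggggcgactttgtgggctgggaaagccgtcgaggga
Mt1 held 3 metal response words, Mt2 held 4 with 1 antioxidant word (TGACTCAGC), Slc30a1 held 1 of each, Atp7a held 2 metal response words, and Atox1 held 1 antioxidant word (TGACGAAGC) with 0 metal response words. With the RefSeq start as position 1, the words of Mt1 began at -23, 3 and 21, and those of Mt2 at -223, -128, -50 and 5. No match overlapped another. Of 32851 promoter windows of 280 bases in the table, 24.1% held at least 1 metal response word, 6.37% at least 2 and 1.73% at least 3, while 11.5% held an antioxidant word. Among the 9 genes described here with a promoter in the table, 5 held a metal response word, Slc31a2 being the other. Ccs was not in it. An antioxidant word was also held, 1 each, by Slc31a2 and Slc39a1, whose promoters are not shown. GENCODE M21 also lists Mt1 transcripts that start at 94179211 and 94179241, which lie 93 and 123 bases past the printed window, and starts both listed Mt2 transcripts past the printed Mt2 window, at 94172664 (17 bases past) and 94172860 (213 bases past). The bases just before these starts are not all shown. A match is a description of letters and not a binding site.

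Zinc import was represented by Slc39a1, which encodes the plasma membrane importer ZIP1, and Slc39a10, which encodes ZIP10. Slc39a1 (ENSMUSG00000052310, chromosome 3, 90248172 to 90253612) stood at 201, 220 and 222 CPM in cKO replicates 1 to 3, against 251, 234 and 267 CPM in control replicates 1 to 3. Each cKO library was below each control library, but the log2 fold change of -0.23 ± 0.07 (SE) did not pass (adjusted p = 0.0997). DESeq2 called it at 0.0243, and with the length trend removed the value was -0.14 (adjusted p = 0.269). Its pseudogene Slc39a1-ps held 1.04% as many reads. Slc39a10 (ENSMUSG00000025986, chromosome 1, 46807544 to 46888070) stood at 74.6, 74.9 and 77.7 CPM in cKO replicates 1 to 3, against 68.7, 76.2 and 73.7 CPM in control replicates 1 to 3. The groups overlapped, with a log2 fold change of 0.055 and a 95% interval of -0.076 to 0.19 (adjusted p = 0.698).

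The other genes of copper handling and the other copper enzymes held no edgeR call. Of 29 such genes tested, 0 rose and 0 fell with edgeR, 5 had an unadjusted p under 0.05, limma-voom called 0 and DESeq2 called 1, Slc25a3, which encodes the mitochondrial carrier of phosphate and copper. Slc25a3 averaged 273.5 ± 12.4 CPM in cKO and 317 ± 20.01 CPM in control cells (SD, n = 3 each; log2 fold change -0.21 ± 0.06, edgeR adjusted p = 0.112, DESeq2 adjusted p = 0.0259). The median over these 29 genes was -0.067, and 0.016 with the length trend removed, beside 0.0015 and 0.034 over all genes tested. Over all genes, 17.2% had an unadjusted p under 0.05, and DESeq2 called 6.04% and limma-voom 3.45%. Genes of copper delivery to cytochrome c oxidase and of its assembly included Cox17 at -0.28 ± 0.13 and Coa5 at -0.14 ± 0.06, each lower in all 3 cKO libraries, at edgeR adjusted p-values of 0.269 and 0.228. Such a separation, lower in cKO, held for 11.4% of all genes tested.

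Among secreted copper enzymes, the amidating enzyme gene Pam stood at -0.19 ± 0.06 (adjusted p = 0.149) and the ferroxidase gene Cp at 0.45 ± 0.23 (adjusted p = 0.334). The collagen crosslinking enzyme gene Lox, named after its values were seen, stood at 510 ± 107 CPM in cKO and 477 ± 50.6 CPM in control cells (SD, n = 3 each), with a log2 fold change of 0.095 ± 0.17. Loxl1 was at 0.18 ± 0.12 and had an edgeR adjusted p of 0.491, and of 0.0257 without cKO replicate 3, a fit that called 3.59% of all genes. Lox is a gene of matrix-forming cells, whose marker sum is given above and was highest in cKO replicate 2. The part of these cells in the Lox and Loxl1 values was not tested. The liver-type copper pump gene Atp7b had 0 to 8 reads per library, and Hephl1 and Moxd1 were likewise too low to be tested.

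Other zinc transporters also held no edgeR call. Of 16 such genes tested, 0 rose and 0 fell with edgeR, 3 had an unadjusted p under 0.05, limma-voom called 0 and DESeq2 called 1, Slc39a4. Their median log2 fold change was -0.028, and -0.038 with the length trend removed, beside 0.0015 and 0.034 over all genes tested. The shares over all genes were 17.2% at an unadjusted p under 0.05, 6.04% called by DESeq2 and 3.45% by limma-voom. Slc39a4, which encodes the zinc importer ZIP4, averaged 16.0 ± 1.13 CPM in cKO and 22.5 ± 5.91 CPM in control cells (SD, n = 3 each; log2 fold change -0.49 ± 0.16, edgeR adjusted p = 0.16, DESeq2 adjusted p = 0.036). Slc39a14, which encodes ZIP14, a carrier of zinc, iron and manganese, was at -0.19 ± 0.08 (adjusted p = 0.263), and Slc39a13 at -0.24 ± 0.11 (adjusted p = 0.307). Within the ZnT family, Slc30a5, which acts in the secretory pathway, was lower in all 3 cKO libraries (-0.19 ± 0.06, adjusted p = 0.132). Slc30a4 was higher in all 3 (0.17 ± 0.08, adjusted p = 0.309), and Slc30a9 was at -0.083 ± 0.07. Of all genes tested, 11.4% were lower and 11.1% higher in every cKO library. Slc30a2, Slc30a3 and Tmem163 were too low to be tested.

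By list, with the 10 genes included, 0 of 24 copper handling genes rose and 1 fell, Atox1, with edgeR, 7 had an unadjusted p under 0.05, and DESeq2 called 4 (Atox1, Mt1 and Slc25a3 lower, Atp7a higher in cKO cells). Of the 24 fold changes 20 were negative, beside 49.6% of all genes tested, a share not matched for gene length. Their median on the log2 scale was -0.12, and -0.071 with the length trend removed, beside 0.0015 and 0.034 over all genes tested. Of 12 copper enzyme genes 0 passed with edgeR or DESeq2, with 2 at an unadjusted p under 0.05 and a median of 0.087. Of 6 ZnT genes 0 passed with either tool, with 1 at an unadjusted p under 0.05 and a median of -0.028. Of 13 ZIP genes 0 passed with edgeR and 2 with DESeq2, with 3 at an unadjusted p under 0.05 and a median of -0.017. Over all genes, 17.2% had an unadjusted p under 0.05, edgeR called 2.42% and DESeq2 6.04%.

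**Figure D4:**
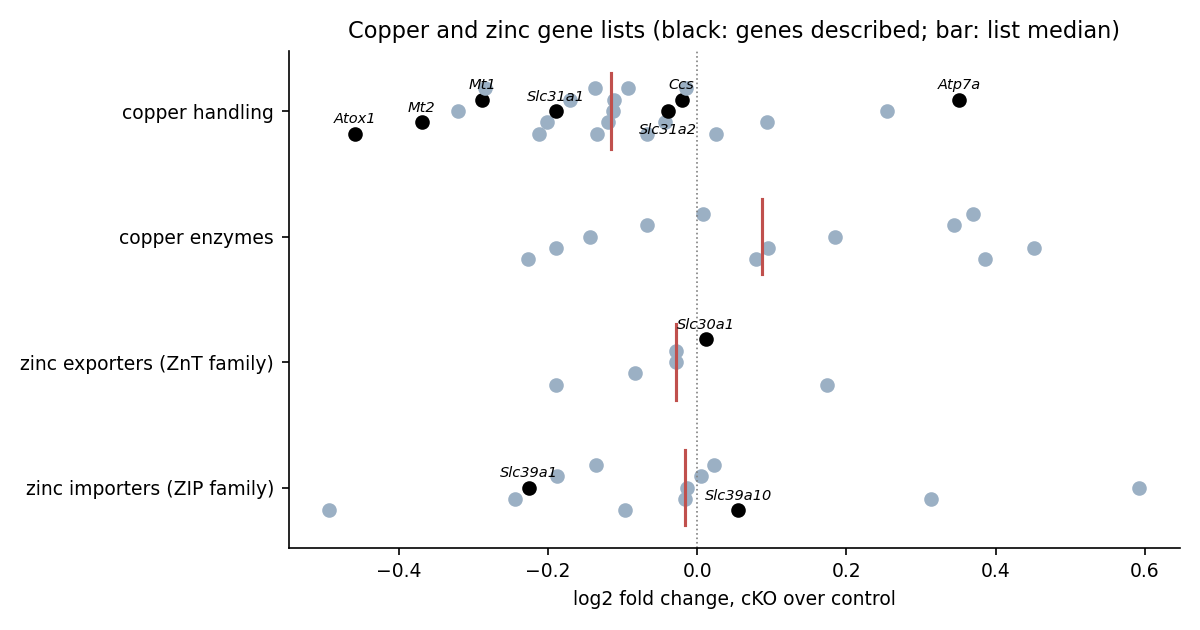
Log2 fold change of cKO over control (x axis) for the tested genes of 4 copper and zinc lists; black points are the named genes described here, grey points the other list genes, and the red bar the list median. Atox1 at -0.46 and Atp7a at 0.35 stand at opposite ends of the copper handling list.

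For the 4 genes whose libraries did not overlap, the genes with the nearest pattern over the 6 libraries were found by the root mean square difference of log2 CPM about the gene's mean, among genes with a mean of at least 5 CPM. For Atox1 they were Ifi27, Snrpb and Atg10, at differences of 0.048, 0.051 and 0.052. For Atp7a they were A930004J17Rik, Dnaaf3 and Dna2, at 0.048, 0.053 and 0.055. For Mt1 they were the proton pump subunit gene Atp6v0b, Nmnat1 and Chchd1, at 0.015, 0.023 and 0.028. Atp6v0b had a log2 fold change of -0.27, and a value near that of Mt1 follows from how it was chosen. For Slc39a1 they were the fatty acid oxidation gene Acadvl and the respiratory chain genes Cox7b and Ndufa9, at 0.015, 0.021 and 0.027.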

How the data were processed

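RNA-seq libraries of 3 cKO and 3 control cultures were analysed. Per the submitters' processing notes, cutadapt 1.9 was used and the build was mm10. No source used here gives the aligner, counting program, annotation or strand setting. The deposited files hold raw read counts per gene, per the file headers, and, again per the file headers, the authors' FPKM. Counts were tested; FPKM served for levels between genes and for relative gene length. Low genes were removed with filterByExpr (minimum count 10, minimum total 15) of edgeR 4.0.16 (R 4.3.3), and the rest were scaled by TMM and tested with a robust quasi-likelihood F test, called at an adjusted p below 0.05. SE is the log2 fold change divided by the square root of F. The fits were tested on simulated data with known changes.

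Alternatives were RLE size factors, DESeq2 1.42.0, limma-voom (limma 3.58.1) with sample weights, no filter, offsets removing a lowess trend (span 0.3) over gene length in each library, the replicate number as a block, each library left out, and Mt1 and Mt2 summed. Gene lists named in the text (copper handling, copper enzymes, ZnT and ZIP families, MTF1 targets, and markers) and the genes described were chosen with earlier results of these data known. All 10 genes are described, and up to 3 others per list by smallest p. Exon lengths are from GENCODE M21. Pairs of libraries of 1 genotype differed by 16.2 to 36.2 times sampling noise (chi-square per degree of freedom), so none appears to be deposited more than once. Depth is given with the counts. B, T and NK and erythroid marker lists had 0 calls.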

Additional observations from a re-analysis of the deposited data

How the results depend on the processing

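Over 132 recomputed log2 fold changes of the 10 genes, 110 kept direction and side of the threshold, 6 lost a call (all Atox1), 8 gained one (6 for Atp7a, 1 each for Mt1 and Slc39a1) and 8 changed sign. The sign changes were in genes near 0: with the length trend removed Slc31a2 was at 0.054 and Ccs at 0.082, and with the replicate block added 0.054 and 0.084; with a library left out Ccs ran from -0.091 to 0.071 (0.048 without cKO replicate 1, 0.071 without control replicate 1) and Slc30a1 from -0.015 to 0.036 (-0.012 without cKO replicate 1, -0.015 without control replicate 1).

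The count of these genes called was 1, and 4 with DESeq2, 2 with no filter, 2 with the replicate block and 0 to 2 with a library left out. The call with the length trend removed, with or without the block, was Atp7a and not Atox1. The count over all genes was 407 (2.42%), 673 with the replicate block (4.00%) and 743 with the block and the length trend removed (4.41%). It was 800 of the 13237 genes with an adjusted p from DESeq2 (6.04%) and 437 with no filter (1.64%). With a library left out it ran from 59 (0.341%) to 624 (3.59%). Calls among other copper genes were 0, and 1 with DESeq2, 1 with the block and the length trend removed (Slc25a3) and 0 to 1 with a library left out; among other zinc transporters they were 0, and 1 with DESeq2. Same-numbered libraries did not deviate together throughout, with correlations across 9584 genes of -0.07, 0.045 and 0.263 for numbers 1 to 3, so the numbers were not taken as pairs. Not every library correlated best with its own number. The best match of cKO replicate 1 was control replicate 2 (0.136), and that of cKO replicate 2 was control replicate 1 (0.166). Pairs across numbers were not tested. With the block Atox1 had an adjusted p of 0.0219 and Atp7a 0.0323. Depth limited Mt2 most, at 175 to 353 reads per library.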
